A study of Mus musculus with 12 samples.

Results

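The imprinted Dlk1-Dio3 domain of mouse chromosome 12 holds a long series of miRNA genes, and their expression in the cerebral cortex was followed in mice with and without the receptor TLR4, on water or on ethanol. The members were taken by name from a fixed list of 43 precursors of this domain, which was chosen with earlier results of these data known. The deposited table gave values for 40 of them among its 589 precursors, and mmu-mir-494, mmu-mir-654 and mmu-mir-758 were not analysed here. Of the 40, 35 were above 0 in at least 1 library, 26 were above 0 in all 12, and 5 were listed at 0 throughout (mmu-mir-376c, mmu-mir-410, mmu-mir-495, mmu-mir-496a and mmu-mir-665).

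Small RNA was sequenced from the cortex of female C57BL/6J mice that were 7 weeks old when the treatment began. The WT and TLR4-KO groups drank water, and the WT + EtOH and TLR4-KO + EtOH groups drank water with 10% (v/v) ethanol, in all cases for 5 months with a solid diet freely available. Each of the 4 groups was represented by 3 libraries, and each library held the pooled RNA of 3 mice, so that an SD is a spread between pools and not between mice. TLR4-KO mice lack the receptor in every tissue. The WT mice were bought from a supplier and the TLR4-KO mice came from another laboratory, so that genotype and colony of origin cannot be told apart. The small RNA libraries do not measure Tlr4 mRNA, and the genotype could not be checked in them.

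The miRNAs of this domain are transcribed from the chromosome inherited from the mother, as parts of long non-coding transcripts that include Meg3, Rian and Mirg. Several of them (mmu-mir-431, mmu-mir-433, mmu-mir-127, mmu-mir-434 and mmu-mir-136) lie opposite to Rtl1, a retrotransposon-derived gene expressed from the paternal chromosome, and can act on its mRNA because they are fully complementary to it. The larger group from mmu-mir-379 to mmu-mir-410 is known for its expression in neurons, where its transcription depends on activity and on Mef2 factors and where miR-134 restrains the growth of dendritic spines. TLR4 is an innate immune receptor, and the study asked which cortical miRNAs respond to long-term ethanol and whether that response depends on this receptor.

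On GRCm38 the 43 listed precursors lie on the plus strand of chromosome 12 within 180.1 kb, at chr12:109563692-109743795. A first block of 10 precursors, from mmu-mir-770 to mmu-mir-370, covers 54.6 kb, and a second block of 33, from mmu-mir-379 to mmu-mir-410, covers 34.7 kb after a gap of 90.7 kb. In the GENCODE M21 annotation, mmu-mir-770 lies in an exon of Meg3, 5 precursors lie opposite to an exon of Rtl1, mmu-mir-370 lies in an intron of Rian, 8 lie in exons and 4 in introns of Mirg, and 24 overlap no annotated gene. The sequences below are those of the mature arms on which the comparisons turn, from RefSeq (GRCm38.p6), written 5′ to 3′ with the seed, bases 2 to 8, in capitals. mmu-mir-299a (chr12:109710638-109710700, in no annotated gene) is shown because it was the member called between groups, mmu-mir-376a (chr12:109723781-109723848) and mmu-mir-376b (chr12:109723458-109723539) because they are close relatives, and mmu-mir-379 (chr12:109709060-109709125) and mmu-mir-411 (chr12:109710175-109710256) because their 3p arms share a seed.
mmu-miR-299a-5p: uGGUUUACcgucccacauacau
mmu-miR-299a-3p: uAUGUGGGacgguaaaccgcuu
mmu-miR-376a-3p: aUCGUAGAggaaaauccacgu
mmu-miR-376b-3p: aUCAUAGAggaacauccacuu
mmu-miR-379-3p: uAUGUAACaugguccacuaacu
mmu-miR-411-3p: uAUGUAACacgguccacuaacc

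Read from the 5′ end, with the base of miR-376b-3p first, miR-376a-3p differs from miR-376b-3p by A4G, C13A and U20G, and the first of these changes lies in the seed. Between miR-379-3p and miR-411-3p the differences are U10C and U22C, both outside the seed. The 5p arms of mmu-mir-376b and mmu-mir-376c share the seed UGGAUAU. Among the mature arms in the sequences used, no other seed is shared between members in the table. Only 1 arm was there for mmu-mir-376c, mmu-mir-485, mmu-mir-487b and mmu-mir-539, and the seeds of their other arms were not compared. Precursors this similar can exchange short reads, and the deposited table gives 1 value per precursor without separating its arms. The remaining members named most often below are mmu-mir-136 (chr12:109595327-109595388, opposite to Rtl1), mmu-mir-485 (chr12:109734902-109734974, in an exon of Mirg) and mmu-mir-666 (chr12:109717103-109717161 for the span of its mature arms, in no annotated gene). Their mature arms are given because each was among the 5 members with the smallest p in at least 1 comparison. For mmu-mir-485 only the 3p arm was in the sequences used.
mmu-miR-136-5p: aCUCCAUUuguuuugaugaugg
mmu-miR-136-3p: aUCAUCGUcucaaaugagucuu
mmu-miR-485-3p: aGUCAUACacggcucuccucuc
mmu-miR-666-5p: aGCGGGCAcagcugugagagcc
mmu-miR-666-3p: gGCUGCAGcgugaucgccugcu

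The deposited values are normalized scores without a unit. The highest score is 135 in every library, the lowest score above 0 is 1.25, and a score of 0 marks a precursor that is listed at 0, which does not show that it is absent. A difference is a number of score units, never a fold. No read count stands beside a score, so that the depth behind each score is unknown. The paper does give miRNA reads per group, most in WT and fewest in TLR4-KO + EtOH. Their spread was smallest in WT and largest in TLR4-KO. Whether read depth had a part in the spread of the scores was not tested. Between 216 and 270 precursors were above 0 per library, and between 29 and 34 members. Of the neuron-enriched miRNAs, 13 of 15 were above 0 in all 12 libraries, with a mean score of 48.8 to 53.3 per library. No other tissue was in the series, so the cortex origin itself could not be checked by comparison.

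The libraries of the WT group lay closer together than those of the other groups. The root mean square deviation of the 26 members above 0 throughout from their group mean was 1.87 to 2.13 for the WT libraries, 1.96 to 3.62 for WT + EtOH, 2.93 to 5.95 for TLR4-KO and 2.42 to 5.18 for TLR4-KO + EtOH. TLR4-KO replicate 1 had the largest value. Its scores were the highest of its group for mmu-mir-337, mmu-mir-380, mmu-mir-329, mmu-mir-382, mmu-mir-431 and mmu-mir-770 and the lowest for mmu-mir-127, mmu-mir-411, mmu-mir-136, mmu-mir-434 and mmu-mir-376a. Several of the results that involve this library are therefore also given without it.

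**Figure D1:**
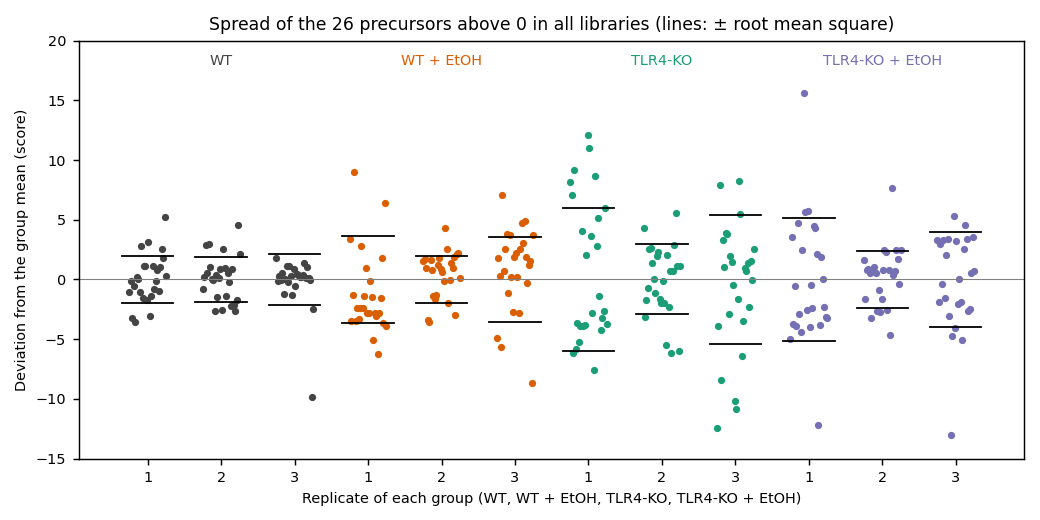
Deviation of each of the 26 members above 0 in all libraries from the mean of its group (vertical axis, score), for the 3 replicates of each group along the horizontal axis; each point is 1 member and the black lines are plus and minus the root mean square. The points spread least in the WT libraries and most in TLR4-KO replicate 1, with a root mean square of 5.95.

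mmu-mir-541 and mmu-mir-411 had the highest scores of the domain. Over the 12 libraries the mean score was 82.8 ± 2.13 (SD) for mmu-mir-541 and 80.3 ± 4.21 for mmu-mir-411, at ranks 31 and 34 of all precursors, and their order was not resolved because the gap was smaller than the larger SD. mmu-mir-127, mmu-mir-434 and mmu-mir-485 followed with 65.3 ± 3.70, 62.9 ± 2.67 and 61.3 ± 3.84, and the step from mmu-mir-411 down to mmu-mir-127, 14.9, exceeded both SDs. From mmu-mir-127 through mmu-mir-136 (59.2 ± 4.92) to mmu-mir-369 (56.4 ± 3.06), neighbours in the order differed by less than the larger of their SDs.

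Scores were thus not spread evenly over the domain. Of the 40 members, 10 were among the 100 precursors with the highest mean, 5 in each block. The median of the mean scores was 46.9 for the 9 members above 0 in the first block and 30.7 for the 26 in the second block. Precursors that lie next to each other could differ widely. mmu-mir-411 stood at 80.3 between mmu-mir-379 (39.4 ± 7.49) and mmu-mir-299a (24.2 ± 6.90), all within the first kilobases of the second block. At the other end of that block, mmu-mir-541 (82.8) was followed by mmu-mir-409 (28.1 ± 7.17), mmu-mir-412 (16.3 ± 10.9), mmu-mir-369 (56.4) and mmu-mir-410, which was listed at 0. The lowest members above 0 were mmu-mir-487b, with a score of 11.3 in WT + EtOH replicate 3 and 0 elsewhere, and mmu-mir-300, above 0 in 2 libraries.

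**Figure D2:**
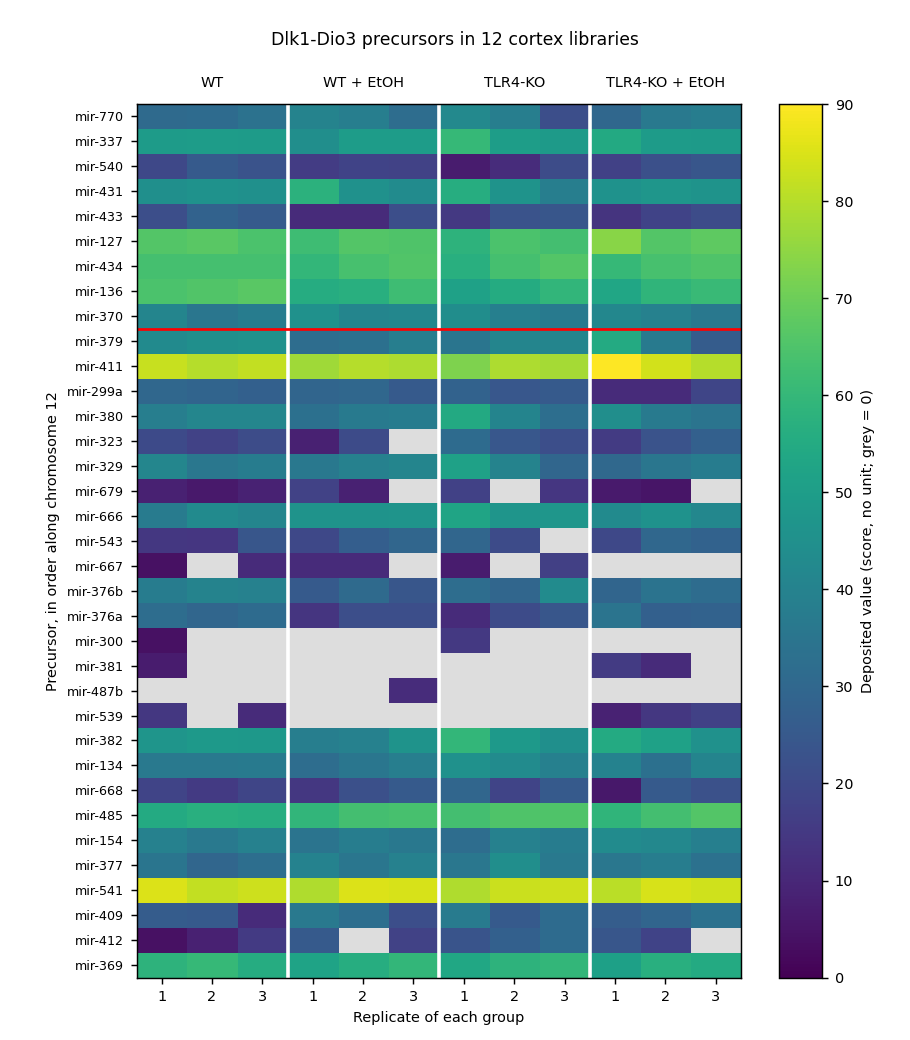
Deposited score (colour, no unit, grey for 0) of the 35 members above 0 in at least 1 library, in their order along the chromosome from top to bottom, in the 3 replicates of each group; the red line separates the 2 blocks of the domain. mmu-mir-411 and mmu-mir-541 are the brightest, with mean scores of 80.3 and 82.8, and mmu-mir-299a is darker in the 3 TLR4-KO + EtOH libraries than in the other 9.

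The first comparison, WT + EtOH with WT, asked which members respond to ethanol in mice with the receptor. No member passed an adjusted p of 0.05 from limma (0 of 40, against 1.7% of all precursors). mmu-mir-376b and mmu-mir-376a had the smallest p, with lower scores in WT + EtOH, while mmu-mir-485 and mmu-mir-666 were higher. Primary transcripts of the miR-376 family are known to be edited from adenosine to inosine in brain, and miR-485 is known for its action on synaptic vesicle proteins.

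The scores of mmu-mir-376b were 37.9, 40.2 and 39.6 in WT and 25.4, 31.2 and 24.0 in WT + EtOH. Those of mmu-mir-376a were 32.3, 29.8 and 31.4 in WT and 13.9, 21.5 and 21.5 in WT + EtOH. For both precursors every WT + EtOH library lay below every WT library. The difference was −12.4 (SE 3.45, adjusted p = 0.151 from limma) for mmu-mir-376b and −12.2 (SE 3.62, adjusted p = 0.181) for mmu-mir-376a. mmu-mir-485 had 55.1, 56.9 and 56.1 in WT and 59.3, 63.0 and 63.9 in WT + EtOH, a difference of 6.03 (SE 1.87, adjusted p = 0.196 from limma). mmu-mir-666 had 37.4, 43.1 and 40.9 in WT and 46.4, 46.3 and 46.7 in WT + EtOH, a difference of 6.03 (SE 1.93, adjusted p = 0.209 from limma). These groups did not overlap either, in the opposite direction to the miR-376 precursors.

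Among the precursors opposite to Rtl1, mmu-mir-433 had scores of 21.7, 28.2 and 25.8 in WT and 11.0, 10.9 and 21.5 in WT + EtOH (difference −10.8, SE 3.73, adjusted p = 0.244 from limma). The highest WT + EtOH library lay just under the lowest WT library. mmu-mir-127 (difference −1.46, 95% interval −6.81 to 3.89) and mmu-mir-434 (difference −0.38, interval −6.03 to 5.27) had intervals that included 0. An unadjusted p under 0.05 was found for 7 members, 2 higher (6.11% of all precursors) and 5 lower (6.45%), together 17.5% of the 40 members against 12.6% of all 589 precursors and 22.8% of the 324 above 0 in any library. The number was 4 without WT + EtOH replicate 1. In this and the later tests the share of members is of all 40, of which 5 were at 0 throughout and could not pass. Over the 35 above 0 the share with an unadjusted p under 0.05 is larger. The groups did not overlap for 4 members that were higher (7.3% of all precursors, 43 of the 324 above 0). Lower without overlap were 8 members (9.51%, 56 of the 324). Here and below, the shares of all precursors by direction or without overlap include the 265 at 0 throughout, which could not pass. Over the 324 above 0 those shares are larger. The median difference was −1.32 over the 35 members above 0 and 0 over the 324 precursors above 0.

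TLR4-KO and WT were compared next, for differences that go with the genotype without ethanol. Again 0 of 40 members passed the adjusted threshold of limma, against 2.55% of all precursors. mmu-mir-485 and mmu-mir-666 were nearest to it, with higher scores in TLR4-KO, and mmu-mir-136 and mmu-mir-376a had lower scores. This comparison uses the same 3 WT libraries as the first one, so that the direction of a member in both is not independent.

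mmu-mir-485 had scores of 63.0, 65.1 and 65.1 in TLR4-KO, all above the 55.1 to 56.9 of WT (difference 8.35, SE 1.87, adjusted p = 0.0569 from limma). mmu-mir-666 had 52.7, 47.1 and 47.4 in TLR4-KO, all above the 37.4 to 43.1 of WT (difference 8.60, SE 1.93, adjusted p = 0.0569 from limma). Without TLR4-KO replicate 1, the differences were 9.04 and 6.79, with adjusted p of 0.119 and 0.136 from limma. Without TLR4-KO + EtOH replicate 1, TLR4-KO + EtOH replicate 3 or WT + EtOH replicate 1, libraries outside this comparison that enter only through the shared spread, mmu-mir-485 was called.

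mmu-mir-136, which lies opposite to Rtl1, had scores of 64.6, 65.6 and 66.8 in WT and 51.5, 55.5 and 59.3 in TLR4-KO. No TLR4-KO library reached a WT library, and the difference was −10.3 (SE 2.64, adjusted p = 0.0936 from limma) with all libraries and −8.31 without TLR4-KO replicate 1. mmu-mir-376a had 10.9, 20.5 and 24.0 in TLR4-KO, below the 29.8 to 32.3 of WT, with the lowest score in replicate 1. The difference was −12.7 (SE 3.62, adjusted p = 0.138 from limma) and −8.93 without that library. Its relative mmu-mir-376b overlapped between the groups, with 32.3, 29.6 and 43.3 in TLR4-KO (difference −4.18, 95% interval −12.1 to 3.72). mmu-mir-540, of the first block, had 19.5, 25.7 and 23.0 in WT and 6.87, 11.3 and 20.9 in TLR4-KO (difference −9.72, SE 3.45, adjusted p = 0.243 from limma), and these groups overlapped. The difference of mmu-mir-540 was −6.64 without TLR4-KO replicate 1.

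Among all members, 9 had an unadjusted p under 0.05, 5 higher (5.94% of all precursors) and 4 lower (6.28%). Together these were 22.5% of all 40 members, against 12.2% of all precursors and 22.2% of those above 0. There were 4 such members without TLR4-KO replicate 2, and 5 when TLR4-KO replicate 1, WT replicate 2 or WT replicate 3 was left out. Of mmu-mir-134, the best known member for its part in dendritic spines, the scores were 36.5, 36.4 and 37.0 in WT and 45.4, 43.3 and 39.1 in TLR4-KO (difference 5.97, SE 2.42, adjusted p = 0.357 from limma). The groups of mmu-mir-134 did not overlap. In all, 6 members were higher in TLR4-KO without overlap (7.13% of all precursors, 42 of the 324 above 0) and 4 were lower (8.49%, 50 of the 324). The median difference over the 35 members was 1.66, and it was −0.97 without TLR4-KO replicate 1, so that 1 library set its sign.

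When only the 285 precursors above 0 in at least 3 libraries were tested, limma called 4 of 33 members between TLR4-KO and WT. Over all 285 precursors it called 31, a similar share. mmu-mir-485 and mmu-mir-666 were higher (adjusted p = 0.0396 for each from limma), and mmu-mir-136 and mmu-mir-376a were lower (adjusted p = 0.0418 and 0.0449). Their differences were unchanged by the filter, which reduced the number of precursors tested. It also changed the shared estimate of the spread, and with it the SE and p. For mmu-mir-299a the SE in this comparison was 2.27 with all precursors and 2.39 under the filter.

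**Figure D3:**
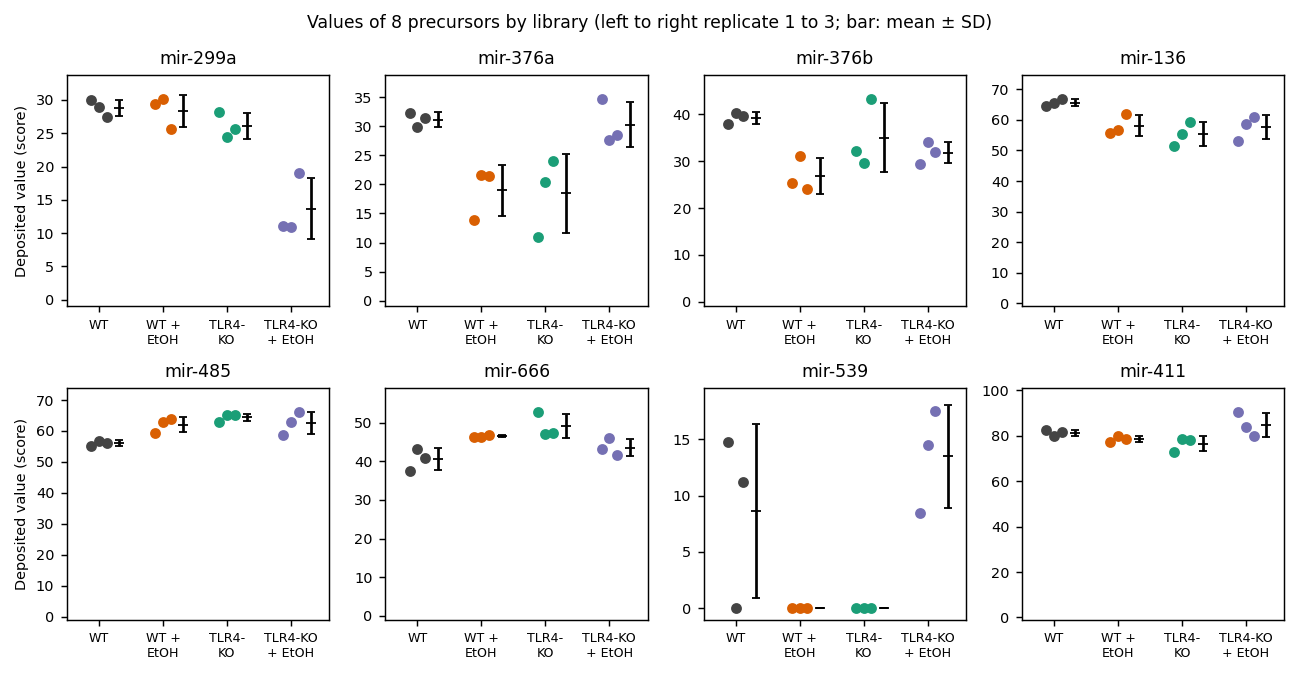
Score of 8 members (vertical axis, no unit, from 0) in the 4 groups (horizontal axis); each point is 1 library, in the order of replicates 1 to 3, and the bars give the mean and SD of 3 libraries. mmu-mir-299a is lower in the 3 TLR4-KO + EtOH libraries (10.9 to 19.0) than in all others, and mmu-mir-376a is lower in WT + EtOH and in TLR4-KO than in the other groups.

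With ethanol in the absence of the receptor, TLR4-KO + EtOH against TLR4-KO, limma called 0 of 40 members, against 0.34% of all precursors. mmu-mir-299a had the smallest p of the members, with lower scores after ethanol. mmu-mir-539, mmu-mir-376a, mmu-mir-411 and mmu-mir-127 followed, all with higher scores. The scores of mmu-mir-299a were 28.2, 24.5 and 25.7 in TLR4-KO and 11.1, 10.9 and 19.0 in TLR4-KO + EtOH, and the groups did not overlap. The difference was −12.4 (SE 2.27, adjusted p = 0.0759 from limma) and −11.4 without TLR4-KO replicate 1 (adjusted p = 0.199). The call was made once TLR4-KO + EtOH replicate 3 was left out, the library with the score of 19.0.

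mmu-mir-539 was listed at 0 in the 3 TLR4-KO libraries and had 8.46, 14.5 and 17.5 in TLR4-KO + EtOH (difference 13.5, SE 3.59, adjusted p = 0.279 from limma). mmu-mir-376a had 34.8, 27.7 and 28.5 in TLR4-KO + EtOH, above the 10.9 to 24.0 of TLR4-KO (difference 11.8, SE 3.62, adjusted p = 0.407 from limma). Without TLR4-KO replicate 1, adjusted p was 0.500 for mmu-mir-539, whose difference stayed at 13.5, and 0.817 for mmu-mir-376a, whose difference was 8.07 (limma). The TLR4-KO + EtOH scores of mmu-mir-376a thus lay near those of WT, 29.8 to 32.3. mmu-mir-411 had 72.7, 78.8 and 78.0 in TLR4-KO and 90.3, 83.7 and 79.9 in TLR4-KO + EtOH (difference 8.13, SE 2.61, adjusted p = 0.433 from limma). mmu-mir-127 had 58.3, 64.6 and 63.0 in TLR4-KO and 74.0, 66.0 and 67.7 in TLR4-KO + EtOH (difference 7.24, SE 2.33, adjusted p = 0.433 from limma). In these 2 members replicate 1 was the lowest library of TLR4-KO and the highest of TLR4-KO + EtOH. Without TLR4-KO replicate 1 the differences were 6.24 and 5.42, and without TLR4-KO + EtOH replicate 1 they were 5.28 and 4.86.

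Of the 40 members, 9 had an unadjusted p under 0.05 in this comparison, 7 higher with ethanol (4.24% of all precursors) and 2 lower (2.72%), together 22.5% against 6.96% of all precursors and 12.7% of those above 0. The number was 4, with 3 of them higher, once TLR4-KO replicate 1 was left out, and 3 in a fit of the 2 groups alone. The groups did not overlap for 4 higher members (3.9% of all precursors, 23 of the 324 above 0). They also did not overlap for 2 lower ones (2.21%, 13 of the 324), mmu-mir-299a and mmu-mir-666. The median difference was −1.57 over the 35 members and 0 over all precursors above 0. The members with the smallest p were mostly higher while 21 of the 35 had a difference below 0, so that no common direction of the domain was seen.

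The last comparison, TLR4-KO + EtOH with WT + EtOH, set the genotypes side by side under ethanol. mmu-mir-299a was the 1 member that limma called (1 of 40, against 0.509% of all precursors), and it fell in TLR4-KO + EtOH. Its scores were 29.3, 30.2 and 25.7 in WT + EtOH, and none of these libraries came near the 10.9 to 19.0 of TLR4-KO + EtOH. The 95% interval of the difference was −19.9 to −9.53, with an adjusted p of 0.0317 from limma. The WT libraries (29.9, 29.0 and 27.5) lay in the same range as WT + EtOH, with a difference of −0.38 (interval −5.59 to 4.82), and TLR4-KO differed from WT by −2.67 (interval −7.88 to 2.53). The moderated F of limma, which asks whether the 4 group means differ at all, also called mmu-mir-299a and no other member (adjusted p = 0.0228, 1 of 40 against 2.38% of all precursors).

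The call of mmu-mir-299a depended on the libraries and the settings. It was made in 7 of 23 settings, with adjusted p from 0.00165 to 0.486 from limma. Of the 12 fits with 1 library left out, it was made without TLR4-KO + EtOH replicate 3 and lost without any of the others (adjusted p = 0.0546 to 0.142), while the difference remained between −17.4 and −13.4. A fit of these 2 groups alone gave the highest adjusted p, 0.486. The precursor on the opposite strand, mmu-mir-299b, was listed at 0 in all 12 libraries. mmu-mir-411 and mmu-mir-380, the neighbours of mmu-mir-299a on the same strand, had scores of 79.9 to 90.3 and 34.8 to 44.6 in TLR4-KO + EtOH against 77.3 to 79.9 and 33.1 to 37.8 in WT + EtOH.

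Other members were higher in TLR4-KO + EtOH than in WT + EtOH without passing the test. mmu-mir-539, also at 0 in the WT + EtOH libraries, had the same difference of 13.5 (adjusted p = 0.279 from limma). mmu-mir-376a differed by 11.3 (SE 3.62, adjusted p = 0.602 from limma), and its groups did not overlap. mmu-mir-154, which gives its name to the largest sequence family of the domain, had 34.8, 38.2 and 36.0 in WT + EtOH and 43.3, 42.1 and 38.8 in TLR4-KO + EtOH (difference 5.07, SE 2.04, adjusted p = 1 from limma). mmu-mir-381 was at 0 in WT + EtOH and at 15.5, 10.9 and 0 in TLR4-KO + EtOH (difference 8.80, SE 3.56, adjusted p = 1 from limma). An unadjusted p under 0.05 was found for 8 members, 7 higher (2.72% of all precursors) and 1 lower (1.87%), together 20% against 4.58% of all precursors and 8.33% of those above 0. This number was 2, with 1 of them higher, without WT + EtOH replicate 1, and 3 without TLR4-KO + EtOH replicate 1. It was 4 in a fit of the 2 groups alone, and also when WT + EtOH replicate 3 or replicate 2 of either TLR4-KO group was left out. It was 5 without WT + EtOH replicate 2 or any 1 of the WT libraries. Scores did not overlap for 3 higher (2.38% of all precursors, 14 of the 324 above 0) and 2 lower members (2.55%, 15 of the 324). The median difference was 0 over the 35 members as over all precursors above 0.

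**Figure D4:**
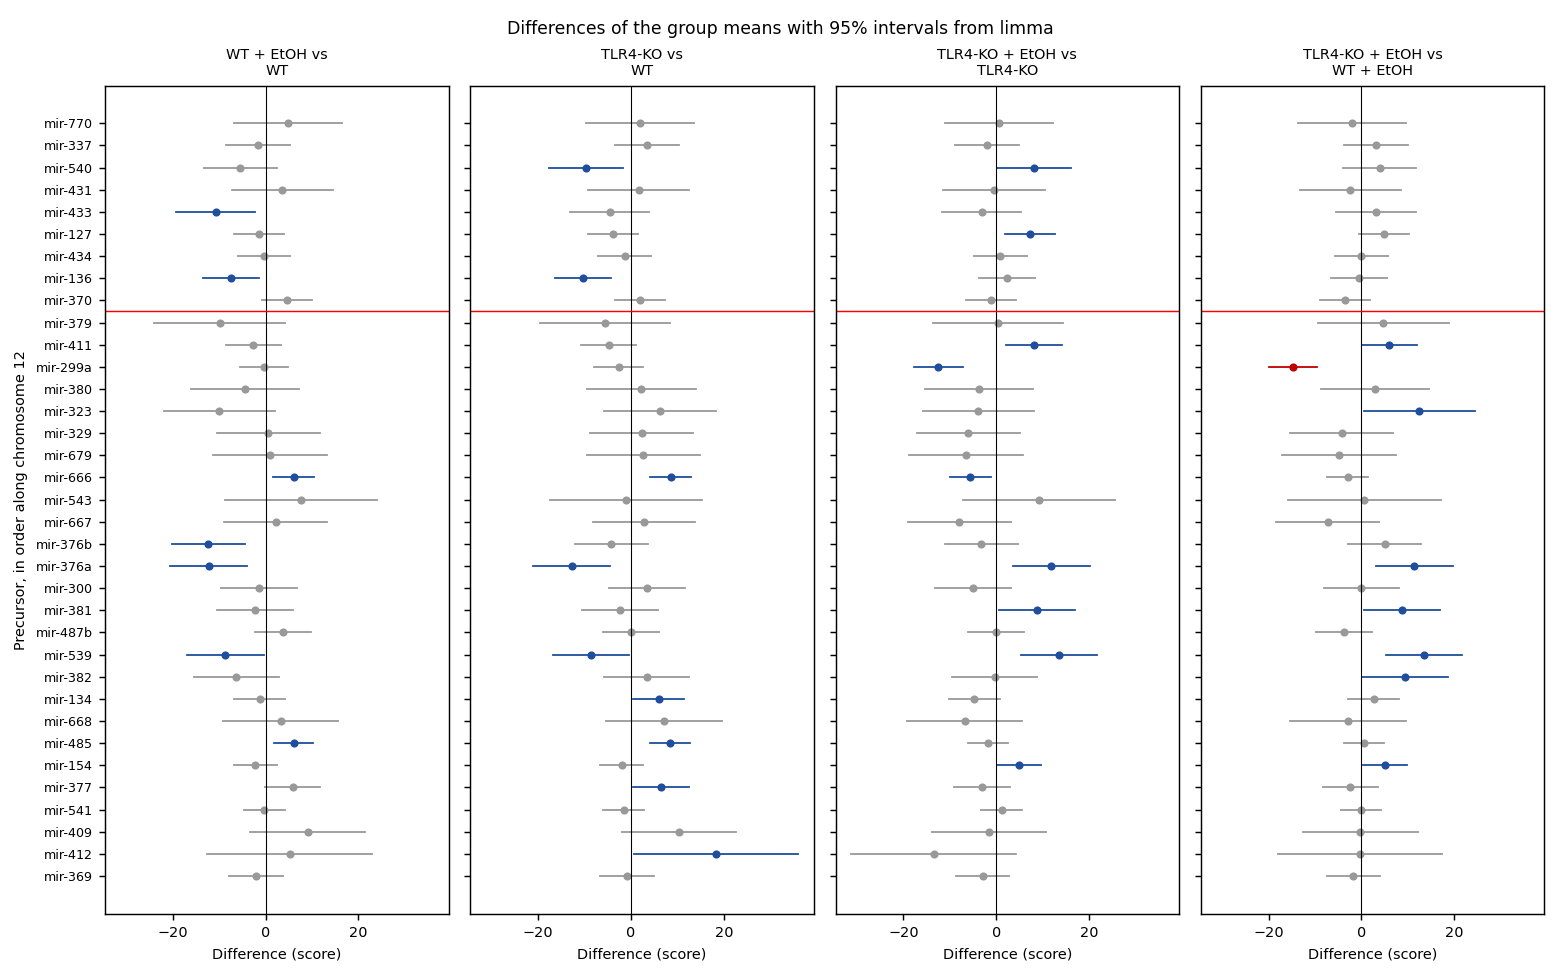
Difference of group means (horizontal axis, score) with its 95% interval from limma for the 35 members above 0, in their order along the chromosome, in the 4 comparisons; red marks an adjusted p under 0.05, blue an unadjusted p under 0.05 and grey the rest, and the red line separates the 2 blocks. mmu-mir-299a in TLR4-KO + EtOH against WT + EtOH is the 1 red point, at −14.7.

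Whether ethanol acted differently in the 2 genotypes was tested as the difference of the ethanol effects, TLR4-KO minus WT. limma called 0 of 40 members, against 1.19% of all precursors, and the smallest adjusted p belonged to mmu-mir-376a. With ethanol its mean score went from 31.2 ± 1.24 (SD) to 19.0 ± 4.41 in WT mice and from 18.5 ± 6.77 to 30.3 ± 3.86 in TLR4-KO mice. The effects thus had opposite signs and differed by 24.1 (SE 5.12, adjusted p = 0.0686 from limma), and by 20.3 without TLR4-KO replicate 1 (adjusted p = 0.0709). With only the 285 precursors above 0 in at least 3 libraries, mmu-mir-376a was called (adjusted p = 0.0406 from limma). Under that filter limma called 2 of 33 members and 13 of all 285 precursors in this test.

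mmu-mir-539 showed the same arrangement at low scores. It had 14.7, 0 and 11.2 in WT and 0 in all 6 libraries of WT + EtOH and TLR4-KO. With ethanol in TLR4-KO mice it had 8.46 to 17.5, and its effects differed by 22.1 (SE 5.07, adjusted p = 0.0764 from limma). It was called without WT replicate 2, the WT library at 0 (adjusted p = 0.0103 from limma). mmu-mir-666 was arranged the other way, with a mean of 40.5 ± 2.84 (SD) in WT and 46.5 ± 0.21 in WT + EtOH, beside 49.1 ± 3.13 in TLR4-KO and 43.5 ± 2.29 with ethanol there. Its effects differed by −11.6 (SE 2.73, adjusted p = 0.0809 from limma). For mmu-mir-299a the difference of the effects was −12.1 (SE 3.21, adjusted p = 0.144 from limma), and for mmu-mir-485 it was −7.82 (SE 2.64, adjusted p = 0.277). mmu-mir-299a passed this test when TLR4-KO + EtOH replicate 3 was left out (−14.7, adjusted p = 0.0219 from limma). Without TLR4-KO replicate 1 the effects differed by 22.1 for mmu-mir-539, −9.76 for mmu-mir-666, −11.0 for mmu-mir-299a and −8.51 for mmu-mir-485, with adjusted p of 0.154, 0.134, 0.254 and 0.310 from limma.

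In this test 11 of 40 members had an unadjusted p under 0.05, 7 of them higher (6.79% of all precursors) and 4 lower (5.77%), together 27.5% against 12.6% of all precursors and 22.8% of those above 0. Leaving out WT replicate 2 or WT + EtOH replicate 1 made it 7. The median over the 35 members was −0.34, beside 0.34 over all precursors above 0. It was 1.30 in the first block and −2.12 in the second, and without TLR4-KO replicate 3 it was −3.78 over the members.

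Several members held nearly the same score in all groups. mmu-mir-541, the highest of the domain, had group means of 83.3 and 83.0 in WT without and with ethanol and of 81.7 and 82.9 in TLR4-KO without and with it, with scores between 79.1 and 85.2. mmu-mir-434, opposite to Rtl1, had group means from 62.1 to 63.5. In the WT libraries the score of mmu-mir-434 was 63.5 each time (SD 0), since scores come from levels shared between the libraries. These members show no difference past the spread between pools, which does not show that they are equal.

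Pairs of precursors on opposite strands had nearly the same scores where both were above 0. mmu-mir-3071 (chr12:109595318-109595397, minus strand), no member, lies over mmu-mir-136, and in every library its score was lower than that of mmu-mir-136, by 1.01 to 3.62. It differed between TLR4-KO and WT by −11.9 (SE 2.64, adjusted p = 0.0569 from limma). mmu-mir-3544, opposite to mmu-mir-337, lay within 2.02 of it in every library. Mature arms from opposite strands of the same hairpin are complementary to each other, and whether reads of one precursor were counted for the other was not tested.

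The shared seed of miR-379-3p and miR-411-3p did not go with shared scores. mmu-mir-379 had 43.1, 45.0 and 45.7 in WT, 32.3, 33.4 and 38.4 in WT + EtOH and 35.1, 40.9 and 40.9 in TLR4-KO. With TLR4-KO + EtOH it reached 55.0, 36.8 and 26.3. Its TLR4-KO + EtOH libraries thus spread over more than the whole range of the other groups, and replicate 1 held the highest score there as it did for mmu-mir-411. Between WT + EtOH and WT mmu-mir-379 differed by −9.90 (95% interval −24.0 to 4.16), and mmu-mir-376c, which shares a 5p seed with mmu-mir-376b, was listed at 0 throughout.

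Of 18 other names from the same domain, 9 were in the table, 5 of these were listed at 0 in all libraries (mmu-mir-544, mmu-mir-1188, mmu-mir-3070-1, mmu-mir-3070-2 and mmu-mir-3072), and 0 were called in any of the 5 tests of limma. An unadjusted p under 0.05 was found for mmu-mir-3071 and mmu-mir-673 in both comparisons with WT, and for mmu-mir-3071 in the difference of the ethanol effects. mmu-mir-673, between mmu-mir-770 and mmu-mir-337, had 46.9, 47.1 and 47.1 in WT and 49.2 to 57.6 in the other 9 libraries. Its difference was 6.71 in WT + EtOH against WT and 6.69 in TLR4-KO against WT (adjusted p = 0.269 and 0.289 from limma). mmu-mir-673 was chosen here after its values were seen.

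Of the markers of other cells, 2 passed the test of limma, both in the comparisons with WT. mmu-mir-150, of leukocytes, rose by 7.41 in WT + EtOH against WT and by 9.28 in TLR4-KO against WT (adjusted p = 0.0444 and 0.00958 from limma). mmu-mir-451a, of red blood cells, fell by 14.6 and by 17.6 (adjusted p = 0.0346 and 0.00948). In each of these comparisons they were 1 of 5 leukocyte and microglia names and 1 of 4 erythroid names, and 0 were called in the oligodendrocyte, vascular and choroid plexus lists. Of the leukocyte and microglia list 5 names were in the table and 3 above 0 in all libraries, with mmu-mir-223, a defining marker of myeloid cells, listed at 0, and the mean score per library lay at 32.1 to 32.2 for WT, 29.5 to 33.5 for WT + EtOH, 28.6 to 32.6 for TLR4-KO and 30.3 to 32.6 for TLR4-KO + EtOH. The erythroid list (4 in the table, 3 above 0 throughout) had a mean of 60.2 to 63.9, 60.8 to 61.6, 57.9 to 61.0 and 54.8 to 60.2 in the same order. For both lists the range of WT overlapped with that of WT + EtOH and with that of TLR4-KO. Of the oligodendrocyte list 1 of 3 was above 0 throughout, with a mean of 14.3 to 15.2, 13.7 to 22.6, 9.74 to 12.2 and 13.5 to 15.1. All 4 vascular markers were above 0 throughout, with a mean of 62.3 to 65.3, 60.1 to 62.2, 59.7 to 64.2 and 60.8 to 64.0, and of the choroid plexus and ciliated cell list 3 of 8 were, with a mean of 21.8 to 25.3, 18.3 to 19.6, 19.2 to 22.9 and 17.8 to 20.1 and mmu-mir-449a and mmu-mir-449c at 0. For the vascular and the choroid plexus lists, the range of WT lay above that of WT + EtOH without overlap. For the oligodendrocyte list it lay above that of TLR4-KO without overlap. The remaining comparisons of WT with WT + EtOH and with TLR4-KO overlapped in these lists. For TLR4-KO + EtOH, the range of the oligodendrocyte list lay above that of TLR4-KO without overlap. Its range of the erythroid list lay below that of WT + EtOH without overlap. The other ranges of TLR4-KO + EtOH in the lists of this paragraph overlapped with those of TLR4-KO and of WT + EtOH. The part of other cells in the differences of the members was not tested, and in tissue a change in the number of cells and in the RNA per cell cannot be told apart.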

How the data were processed

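According to the Methods and the submitters' processing notes, the authors trimmed adapters with Cutadapt and checked reads with FastQC 0.11.6. They mapped the reads with Bowtie2 2.2.5 and TopHat, counted them per precursor and normalized the counts. The Methods name the trimmed mean of M values for this step. GRCm38 is the build of the notes. Of this, the authors deposited a normalized score for each of 589 precursors and 12 libraries, on a scale that the sources used here do not define. How the scores relate to the trimmed mean of M values is therefore not known here. The scores share 1 highest value in all libraries and are not whole numbers, so no count model was run. The depth behind each score is unknown and no counting interval is given.

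The deposited scores entered limma 3.58.1 (R 4.3.3) through lmFit, contrasts.fit and eBayes. The model held a mean for each group over the 12 libraries and nothing else, for 4 comparisons of groups and for the difference of the ethanol effects. p values were adjusted by Benjamini-Hochberg over the 589 precursors of each test and called under 0.05. All 589 precursors entered the fit, with the 265 listed at 0 in every library. The total degrees of freedom were 8.31. With 3 libraries against 3, an exact permutation test, two-sided, reaches 0.1 at best, so none was run, and the p values measure the spread between pools.

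Named members were those called, the 5 with the smallest p in each test, the 5 with the highest mean and those that share a seed. mmu-mir-134, mmu-mir-434 in its comparisons, mmu-mir-380, mmu-mir-369, mmu-mir-409, mmu-mir-412, mmu-mir-300, mmu-mir-487b and the precursors on the opposite strand were added for their position or role after their values had been seen. The members and lists were chosen with earlier results of these data known. Alternatives were quantile normalization, centring on miR-181a and miR-181b, filters on scores of 0, the 2 compared groups alone, the replicate number as a block, limma with a trend, robust eBayes, array weights and each library left out in turn. A fit without replicate 1 of each group but WT was chosen after seeing the data. The labels give all groups replicate numbers 1 to 3 without saying what a number marks. Deviations from the group means correlated over precursors by 0.133, 0.101 and 0.153 for the 3 same-numbered pairs of TLR4-KO and TLR4-KO + EtOH, each over 0.1. Differently numbered libraries of these 2 groups reached at most 0.051. Between other groups, differently numbered libraries reached 0.246 (WT replicate 2 with WT + EtOH replicate 1). The values thus do not settle whether a number marks a pair. In each of the other comparisons at least 1 pair was at or under 0.1. The main fit used no pairing, and the fit with the replicate number as a block is given below. mmu-mir sequences came from RefSeq (GRCm38.p6) and host genes from GENCODE M21. Python 3.11.15 with numpy 2.4.6, pandas 2.3.3, scipy 1.17.1 and matplotlib 3.10.9 was used for summaries and figures.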

Additional observations from a re-analysis of the deposited data

How the results depend on the processing

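For the 5 members with the smallest p in each test, 486 values under the alternatives kept their direction and their side of the threshold, 39 passed it in addition, 16 no longer passed it (all of mmu-mir-299a in TLR4-KO + EtOH against WT + EtOH), and 0 changed direction. These members were chosen by the main fit and the alternatives reuse its libraries, so that a kept direction is no independent support. The number of members called by limma moved with the setting. So did the number over all precursors tested, given in parentheses except for the last test listed. A filter both reduced the number of precursors tested and changed the SE and p, and these were not told apart. In WT + EtOH against WT 1 member was called, instead of 0, with only precursors above 0 in all 12 libraries (17 of 190). The number was 4 with array weights (60 of 589) and 2 with 9 libraries (33 of 589). In TLR4-KO against WT, instead of 0, it was 1 after centring (21 of 589) and 4 with either filter (31 of 285 and 29 of 190). It was 1 with the 2 groups alone (13 of 589) and 3 with array weights (41 of 589). With 9 libraries it was 2 (31 of 589), and there the median difference of the members became −0.97. In TLR4-KO + EtOH against TLR4-KO it was 1 with precursors above 0 in at least 3 libraries (3 of 285). In TLR4-KO + EtOH against WT + EtOH it was 0 instead of 1 after quantile normalization (1 of 589) and with the 2 groups alone (0 of 589). It was also 0 with a trend (2 of 589) and with 9 libraries (0 of 589). For the difference of the ethanol effects it was 1 after centring (12 of 589). It was 2 and 1 with the filters at 3 and 12 libraries (13 of 285 and 7 of 190). With array weights it was 2 (22 of 589) and with 9 libraries 1 (22 of 589). For any difference between the 4 groups it was 4 with array weights and 2 with 9 libraries, instead of 1. The causes of these moves were not tested.

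With the replicate number as a block, limma called 1 member in WT + EtOH against WT (mmu-mir-136, lower). It called 2 in TLR4-KO against WT (mmu-mir-136, lower, and mmu-mir-485, higher) and 0 in TLR4-KO + EtOH against WT + EtOH. Over all 589 precursors it called 13, 24 and 2 in these comparisons, in the same order. For any difference between groups 2 members were called. In TLR4-KO + EtOH against TLR4-KO, where every same-numbered pair correlated by over 0.1, the block changed no call (0 members, with 8 instead of 9 at an unadjusted p under 0.05). There the adjusted p of mmu-mir-299a from limma was 0.242 with the block and 0.0759 without it. Across all groups, deviations of same-numbered libraries correlated from −0.11 to 0.15 over precursors, with 10 of 18 pairs over 0.1, and not every library correlated best with its own number.

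With each library left out in turn, the number of members called ranged from 0 to 1 in each of the 4 comparisons. The range was the same for the difference of the ethanol effects and for any difference between groups. Over all 589 precursors it was 4 to 18 (WT + EtOH against WT) and 11 to 22 (TLR4-KO against WT). It was 0 to 4 (TLR4-KO + EtOH against TLR4-KO), 0 to 3 (TLR4-KO + EtOH against WT + EtOH) and 2 to 15 (difference of the ethanol effects). A member was called in addition without TLR4-KO replicate 3 (mmu-mir-376b in WT + EtOH against WT, mmu-mir-540 in TLR4-KO against WT), without WT replicate 2 (mmu-mir-539 in TLR4-KO against WT) and in the cases given above for mmu-mir-485, mmu-mir-299a and mmu-mir-539. The median difference of the members ranged from −1.64 to 0 (WT + EtOH against WT), −0.97 to 1.94 (TLR4-KO against WT), −1.64 to 0 (TLR4-KO + EtOH against TLR4-KO), −0.42 to 1.43 (TLR4-KO + EtOH against WT + EtOH) and −3.78 to 1.02 (difference of the ethanol effects), and the median of the mean scores from 35.6 to 36.9.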
